A study of Mus musculus with 5 samples.

Results

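The 5 genes of the NF-kB transcription factor subunits, Rel, Rela, Relb, Nfkb1 and Nfkb2, were followed in germinal centre B cells with and without floxed Rel alleles. Their members were every probe set of the deposited table whose platform gene symbol is 1 of these 5 names, dim and secondary probe sets included. This gave 5 of the 45101 probe sets, covering 4 of the 18194 genes that the annotation names singly. Rel, Rela and Relb have 1 probe set each and Nfkb2 has 2, while Nfkb1 was not analysed here. The rule used the names of the genes and no measured value.

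The cells were germinal centre B cells sorted by flow cytometry from spleens of C57BL/6 mice, 12 weeks old, at day 7 after sheep red blood cells (SRBC) were injected. The 2 REL arrays came from eGFP-positive cells of relfl/flCg1-Cre mice, in which both alleles of Rel are flanked by loxP sites. The 3 WT arrays came from Cg1-Cre littermates, which carry the same Cre without the floxed alleles and were sorted as eGFP-negative. Both groups share the Cg1-Cre allele, the immunization, the age and the sort for germinal centre B cells. The eGFP gate differed between the groups, so it and the Rel genotype cannot be told apart in these data. Cg1-Cre expresses Cre from the immunoglobulin gamma 1 constant region locus, which is transcribed in B cells after activation, so that recombination occurs mostly in activated B cells. The question of the design was how germinal centre B cells differ when Rel is deleted. Whether the arrays stand for separate animals is not stated in the labels, and p-values therefore cover only the spread between the samples at hand, part of which may be technical.

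NF-kB is a family of dimeric transcription factors that all share a Rel homology domain for DNA binding and dimerization. Rel (c-Rel), Rela (p65) and Relb carry a transactivation domain, whereas Nfkb1 and Nfkb2 encode the precursors p105 and p100, which are processed to p50 and p52. In the canonical pathway IkB proteins hold dimers such as p50 with c-Rel or p65 in the cytoplasm until the IKK complex marks the inhibitor for degradation. The alternative pathway, driven by receptors such as CD40 and the BAFF receptor, processes p100 to release p52 with RelB. In B cells c-Rel is known for its part in proliferation and survival after antigen receptor and CD40 signals, and in the maintenance of germinal centres.

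Some subunit genes are themselves known targets of NF-kB. The promoter windows of Rel, Rela and Nfkb2 are therefore shown for the presence or absence of the kappaB consensus motif. Each window runs from 250 bases before to 50 bases after a RefSeq transcription start on GRCm38.p6 and reads 5′ to 3′ on the gene's strand. RefSeq windows were matched for 3 of the genes, Rel, Rela and Nfkb2, and the first of the 3 Nfkb2 windows is printed. Capitals mark matches to the kappaB consensus on either strand, with overlapping matches joined.
Rel, chr11:23770920-23771219, minus strand: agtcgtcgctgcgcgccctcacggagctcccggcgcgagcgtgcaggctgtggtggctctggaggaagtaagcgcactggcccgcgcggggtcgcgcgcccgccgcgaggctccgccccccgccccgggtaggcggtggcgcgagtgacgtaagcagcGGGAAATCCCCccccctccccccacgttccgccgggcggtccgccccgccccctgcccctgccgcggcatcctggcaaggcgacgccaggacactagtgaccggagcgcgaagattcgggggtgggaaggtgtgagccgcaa
Rela, chr19:5637291-5637590, plus strand: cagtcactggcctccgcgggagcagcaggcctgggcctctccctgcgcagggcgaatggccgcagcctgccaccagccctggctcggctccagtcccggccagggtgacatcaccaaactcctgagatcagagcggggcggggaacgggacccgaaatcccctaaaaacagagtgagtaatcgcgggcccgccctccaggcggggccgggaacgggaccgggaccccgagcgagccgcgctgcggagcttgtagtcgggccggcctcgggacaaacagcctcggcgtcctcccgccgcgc
Nfkb2, chr19:46304487-46304786, plus strand: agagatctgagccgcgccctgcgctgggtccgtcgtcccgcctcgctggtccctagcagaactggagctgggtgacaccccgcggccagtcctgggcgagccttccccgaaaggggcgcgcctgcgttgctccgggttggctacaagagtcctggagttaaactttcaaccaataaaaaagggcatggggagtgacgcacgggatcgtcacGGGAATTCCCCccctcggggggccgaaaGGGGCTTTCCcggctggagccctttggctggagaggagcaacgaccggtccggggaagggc
The Rel window held 1 such stretch, GGGAAATCCCC, whose first base lies 92 bases before the start. The printed Nfkb2 window held 2 stretches, GGGAATTCCCC at 39 bases and GGGGCTTTCC at 11 bases before the start. Both other Nfkb2 windows held a match as well, but these windows overlap and share the stretch GGGACTTTCC at the same site. The Rela window held no match. Of 32851 windows of this length, 8.46% held a match. A stricter form of the consensus marked the same bases in these genes and was found in 4.51% of all windows. These matches describe the sequence and say nothing about binding in the sorted cells.

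Values are MAS5 signals, the brightness of a probe set in arbitrary units on a linear scale, scaled on each array by itself. The label of the sort was checked against marker genes, each tested by its brightest probe set where that lay above the lowest 40% of probe sets by mean over the 5 arrays. The 12 tested genes of the germinal centre B cell list summed to signals of 64220 and 72697 in REL and 64289 to 78655 in WT. Of these, 4 were higher and 8 lower, beside 5216 and 6866 of all 12082 genes. The list includes general B cell genes such as Ms4a1 (CD20), so the sums check B cells more than the germinal centre label. Rgs13 of this list had 4514 and 3321 in REL and 4960 to 6058 in WT (limma adjusted p = 0.483). Macrophage markers (14 tested of 17) summed to 8803 and 7297 in REL and 1349 to 2444 in WT, with 13 genes higher and 1 lower. Markers of this list that are dim in WT passed the filter on low signals through REL, so its count is no support for a difference. No tested marker was at 0. T cell markers were dim, with 1 of 8 tested (131 and 65.4 in REL, 70.8 to 113 in WT). Plasma cell markers summed to 17278 and 19115 in REL and 17807 to 20836 in WT, of which Jchain, the immunoglobulin joining chain gene, made up 11600 and 12528 in REL and 11379 to 13129 in WT. The dimmer syndecan gene Sdc1 had 42.6 and 42.4 in REL and 125 to 455 in WT. The secretory transcription factor gene Xbp1 had 2469 and 2805 in REL and 1708 to 1985 in WT. Neither was called in limma (adjusted p = 0.458 and 0.618). Neutrophil markers (3 tested of 7) summed to 338 and 62.1 in REL and 80.3 to 1122 in WT. Erythroid markers (2 tested of 5) summed to 96.4 and 39.6 in REL and 130 to 556 in WT. Of these, Slc4a1 (14.3 and 4.11 in REL, 23.8 to 69.5 in WT) passed the filter on low signals through WT, so the erythroid sum is no support for a difference. Macrophages express NF-kB subunits too, and in bulk RNA fewer cells of a type and less RNA per cell cannot be told apart. The part of these cells in the subunit values was not tested. The 2% trimmed mean was 500 on each array, median signals ran from 30.1 to 48.1 in REL and 40.7 to 54.6 in WT, and the 3′ over 5′ ratio of Actb was 1.64 and 1.73 in REL and 1.58 to 2.45 in WT.

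Rel, the targeted gene, had its lowest signals on the 2 REL arrays, but the difference did not pass the adjusted threshold. Its probe set, 1420710_at (Rel on chromosome 11), had signals of 18.6 and 85.2 in REL replicates 1 and 2, against 492, 134 and 206 in WT replicates 1 to 3. The groups did not overlap, and REL replicate 1 lay below 23.1, the signal that marks the lowest 40% of probe sets. On the log2(signal + 16) scale the mean was 5.89 ± 1.10 in REL (SD, n = 2) and 8.0 ± 0.90 in WT (SD, n = 3). The difference was −2.12 (SE 0.78, 95% interval −3.89 to −0.34), that is 0.230-fold with an interval of 0.0673 to 0.789, on a scale that understates changes of dim probe sets. Fitted over all 45037 probe sets other than controls, limma gave Rel an unadjusted p of 0.0246 and an adjusted p of 0.746, against a threshold of 0.05.

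The arrays of each group differed widely for Rel. The highest WT signal was 3.68 times the lowest, and the higher REL signal was 4.59 times the lower. Relative to the WT mean, REL replicates 1 and 2 stood at −2.89 and −1.34 on the log2 scale, and WT replicates 1 to 3 at 0.99, −0.78 and −0.21. REL replicate 2 was thus nearer to WT replicate 2 than to REL replicate 1. The spread of Rel within groups (residual SD 0.97 log2 units) was larger than that of 84.7% of the probe sets above the lowest 40%. Of all probe sets, 0.422% had a lower difference than Rel. The difference was −1.34 without REL replicate 1 and −2.89 without REL replicate 2, and it was below 0 when any single WT array was left out. With 64 in place of 16 added before the log it was −1.48. Which exons of Rel are removed is not stated in the labels, and transcript left outside them would still be detected, so the signal is no full check of the genotype.

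**Figure D1:**
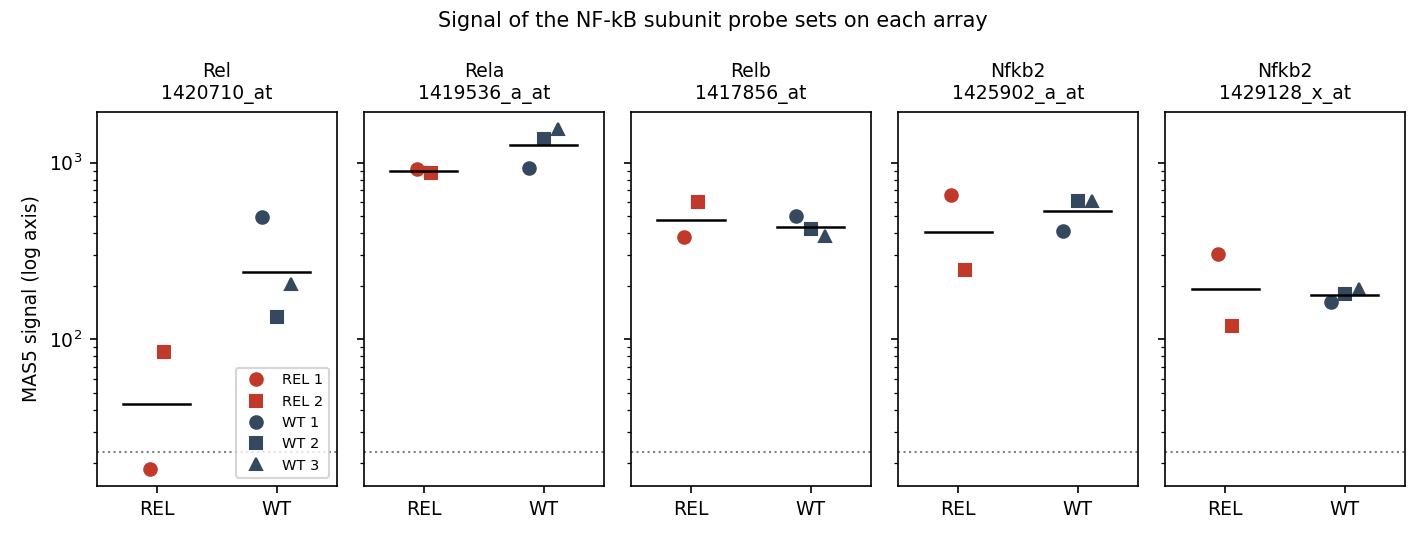
MAS5 signal (log axis) of the 5 subunit probe sets on each array, with REL left and WT right; the marker shape gives the replicate number, black lines the group mean taken on the log2(signal + 16) scale, and the dotted line the level of 23.1 that marks the lowest 40% of probe sets. The REL points of Rel (18.6 and 85.2) lie below the 3 WT points, whereas the groups overlap for Relb and both Nfkb2 probe sets.

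Rela encodes p65, the transactivating partner of p50 in the canonical pathway. Its probe set, 1419536_a_at (chromosome 19), had signals of 925 and 871 in REL and 928, 1359 and 1560 in WT. REL replicate 1 and WT replicate 1 were nearly equal, so that the groups were separate by a margin of 925 against 928. The means were 898 ± 38.3 in REL (SD, n = 2) and 1282 ± 323 in WT (SD, n = 3). The log2 difference was −0.47 (SE 0.32, 95% interval −1.21 to 0.26), with a limma adjusted p of 0.823. The REL signals were the lowest of the 5 arrays for 2 of the 5 subunit probe sets, Rel and Rela, and for 14.1% of all probe sets.

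Relb encodes the transactivating subunit of the alternative pathway. The signals of 1417856_at (chromosome 7) were 377 and 600 in REL and 496, 420 and 386 in WT, and the REL arrays lay on either side of the WT range. The mean was 489 ± 158 in REL and 434 ± 56.5 in WT (SD, n = 2 and 3). The difference was 0.14 log2 units (SE 0.42, 95% interval −0.80 to 1.08; limma adjusted p = 0.969). It was −0.19 without REL replicate 2 and 0.46 without REL replicate 1, so its direction rests on which REL array is kept.

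Nfkb2 encodes p100, the precursor of p52 and an inhibitor of RelB, and was measured by 2 probe sets on chromosome 19. The brighter one, 1425902_a_at, had signals of 656 and 246 in REL and 412, 609 and 606 in WT. The dimmer one, 1429128_x_at, had 303 and 119 in REL and 162, 181 and 192 in WT. On both, REL replicate 1 was the highest array and REL replicate 2 the lowest, outside the WT range on either side. The differences were −0.39 log2 units (SE 0.50, 95% interval −1.52 to 0.74; limma adjusted p = 0.907) for the brighter probe set and 0.10 (SE 0.59, 95% interval −1.24 to 1.44; limma adjusted p = 0.987) for the dimmer one. The signs differed between the probe sets, and the within-array log2 ratio of the brighter to the dimmer probe set was 1.07 and 0.96 in REL and 1.26, 1.67 and 1.58 in WT. That ratio differed by −0.49 (exact permutation test over 5 arrays, two-sided p = 0.2, where 0.1 is the smallest possible). Without REL replicate 2 the brighter probe set stood at 0.29, and without REL replicate 1 the dimmer one at −0.52.

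Counted over all members, 0 of the 5 subunit probe sets were called at a limma adjusted p under 0.05, where 0.0% of the 45037 probe sets were called. At an unadjusted p under 0.05 there was 1 of the 5, Rel, where 6.26% of all probe sets passed. That count was 0 without WT replicate 1 (limma unadjusted p for Rel = 0.101), WT replicate 3 (0.0552) or REL replicate 1 (0.134). All 5 lay above the lowest 40% of probe sets by mean signal. In the fit of 12082 genes by their brightest probe set, 0.00828% of genes were called, which is 1 gene, Vcam1, from the list of macrophage markers above. Its signals were 671 and 390 in REL and 0.833 to 2.46 in WT, so that it passed the filter on low signals through REL. None of the 4 measured subunits was called there. The median difference over all probe sets was −0.08. Median centring of the arrays moved it to 0.09, and the signs of the 5 subunit differences stayed as given under centring and under quantile normalization.

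**Figure D2:**
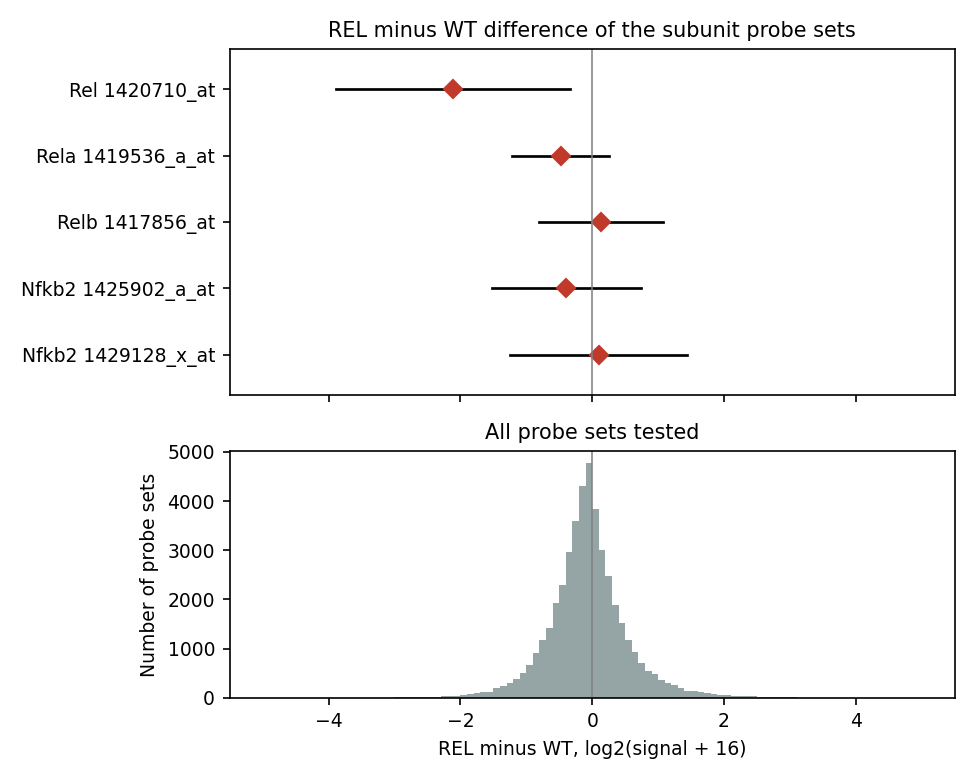
Upper panel, REL minus WT difference on the log2(signal + 16) scale for each subunit probe set, with diamonds for the limma estimate and lines for its 95% interval; lower panel, number of probe sets per 0.1 of the same difference over all 45037 tested, with values beyond 5 placed in the last bins. The interval of Rel (−3.89 to −0.34) is the only 1 of the 5 that leaves out 0, before any adjustment.

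Subunit levels relative to each other were compared as the log2 ratio of 2 probe sets on the same array, in which a scaling factor of the array largely cancels. Probe sets differ in how strongly they bind their target, so the size of a ratio says nothing about which subunit is more abundant, and only its difference between REL and WT is read. The 4 measured subunits gave 6 pairs, with the dimmer probe set, 1429128_x_at, standing for Nfkb2. Ratios with the brighter Nfkb2 probe set were not tested. With 2 against 3 arrays there are 10 arrangements, so an exact permutation test cannot go below p = 0.1 and no pair could pass 0.05.

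Rel over Relb was −3.51 and −2.61 in REL and −0.01, −1.54 and −0.86 in WT. The groups did not overlap, and the ratio differed by −2.26 (exact permutation p = 0.1, adjusted over 6 pairs 0.3). Rel over Nfkb2 was −3.21 and −0.41 in REL and 1.51, −0.39 and 0.10 in WT, a difference of −2.22 (exact permutation p = 0.1, adjusted 0.3). The groups did not overlap here either, but REL replicate 2 lay just below WT replicate 2. On the brighter Nfkb2 probe set (246 in REL replicate 2 and 609 in WT replicate 2) that order turns, and the groups overlap. Rel over Rela was −4.77 and −3.13 in REL and −0.89, −3.20 and −2.83 in WT, and the groups overlapped (difference −1.64, exact permutation p = 0.3, adjusted 0.36).

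Among the subunits other than Rel, the differences were nearer to 0. Rela over Relb was 1.26 and 0.53 in REL and 0.88, 1.66 and 1.97 in WT, a difference of −0.61 (exact permutation p = 0.3). Rela over Nfkb2, again by the dimmer Nfkb2 probe set, was 1.56 and 2.72 in REL and 2.41, 2.81 and 2.92 in WT. This was a difference of −0.57 (exact permutation p = 0.3), which was 0.0052 without REL replicate 1. Relb over Nfkb2, the pair that makes up the alternative pathway dimer, was 0.30 and 2.19 in REL and 1.52, 1.15 and 0.95 in WT. Its REL arrays lay on either side of every WT array, and the mean difference was 0.04 (exact permutation p = 0.9).

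**Figure D3:**
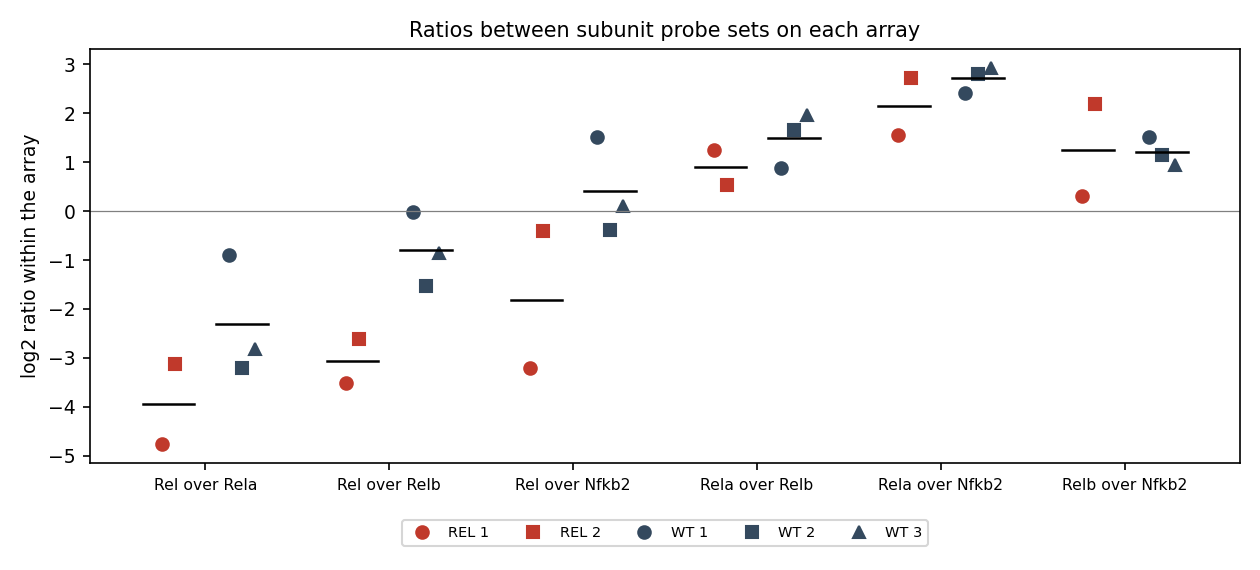
Within-array log2 ratio between the probe sets of 2 subunits for the 6 pairs, with Nfkb2 by its dimmer probe set. REL is to the left of WT in each pair, the marker shape gives the replicate number and black lines the group means. The REL points lie below all WT points for Rel over Relb and Rel over Nfkb2, while the 2 REL points of Relb over Nfkb2 (0.30 and 2.19) enclose the WT points.

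The genes whose profile over the 5 arrays lay nearest to each subunit were found by root mean square distance of log2 values centred on their own mean, as a description over 5 arrays. Nearest to Rel were Atp10d, a phospholipid-transporting ATPase gene, at 0.25 log2 units, St7l at 0.33 and B230217O12Rik at 0.34. Atp10d had signals of 62.7 and 197 in REL and 741, 216 and 349 in WT, with WT replicate 1 highest and REL replicate 1 lowest, as for Rel. Rela lay nearest to the biliverdin reductase gene Blvra (0.031), the pyruvate dehydrogenase kinase gene Pdk3 (0.043) and the Polycomb gene Ring1 (0.047). Relb lay nearest to Glg1 (0.058), the mitochondrial calcium uptake gene Micu2 (0.059) and Sfxn1 (0.059). Nfkb2, taken by its dimmer probe set, lay nearest to the ceramide synthase gene Cers2 (0.055), Ptprk (0.059) and 1700008K24Rik (0.065). None of these 12 genes passed in limma (adjusted p 0.549 to 0.987). They were picked for likeness to subunits that were not called, so this and their order of arrays are no separate result. Among the subunits themselves, with Nfkb2 by its dimmer probe set, Rela and Nfkb2 were nearest at 0.49. Rela and Relb were 0.52 apart, and Rel was 1.24 to 1.53 from the others.

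The proteins that hold, release or modify the subunits were measured by 13 genes of a list of 14, of which 8 were higher, 5 lower and 0 called in limma. Their median difference was 0.07, beside −0.07 over all 12082 genes, and 1 had an unadjusted p under 0.05, where 8.24% of all genes did. That gene was Map3k7, which encodes the kinase TAK1 upstream of IKK. Its signals were 1107 and 1548 in REL and 3001, 1813 and 2266 in WT (difference −0.81, SE 0.29, limma adjusted p = 0.486). Nfkbid, the gene of the nuclear IkB protein IkBNS, had 533 and 2178 in REL and 483, 425 and 520 in WT (difference 1.16, SE 0.55, limma adjusted p = 0.635). For Nfkbid REL replicate 2 was far above the rest, and REL replicate 1 (533) lay near the highest WT array (520). The IkB epsilon gene Nfkbie (−0.45) and the IkB zeta gene Nfkbiz (0.32) had overlapping groups.

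Of 19 genes of receptors and adaptors that signal to NF-kB, 15 were tested, 8 higher, 7 lower and 0 called, with a median of 0.02. In limma 0 of them had an unadjusted p under 0.05, where 8.24% of all genes did. The endosomal RNA sensor gene Tlr7 had 51.1 and 18.5 in REL and 219, 176 and 33.2 in WT (difference −1.44, SE 0.75). Bcl10, an adaptor of the antigen receptor pathway, was at 0.32, the gene of the costimulatory receptor CD40 at −0.46 and Tnfrsf13b, which encodes the receptor TACI, at 0.31. Tnfrsf13b had signals of 3195 and 2805 in REL and 2025 to 2639 in WT. None of these passed in limma (adjusted p 0.673 to 0.781).

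Of 34 listed NF-kB target genes 28 were tested, 15 higher and 13 lower, and 0 were called in limma. The median difference was 0.04, beside −0.07 over all genes. An unadjusted p under 0.05 was found for 1 of the 28 genes, where 8.24% of all genes had one. That gene was the adhesion receptor gene Cd44, with 4764 and 3725 in REL and 3215, 2536 and 2101 in WT (difference 0.70, SE 0.24, limma adjusted p = 0.458). The costimulatory ligand gene Cd80 was dim, with 9.40 and 12.6 in REL and 78.2, 15.1 and 56.7 in WT (difference −1.15, limma adjusted p = 0.646). The plasma cell and germinal centre transcription factor gene Irf4 was at −0.43 and Cflar, the gene of the apoptosis inhibitor c-FLIP, at 0.61. Nuclear partners, ubiquitin ligases and coactivators of NF-kB (12 tested of 13) had a median of −0.05 and 0 calls, with Sharpin of the linear ubiquitin ligase at −0.44 and the IkB ubiquitin ligase gene Btrc at 1.01.

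**Figure D4:**
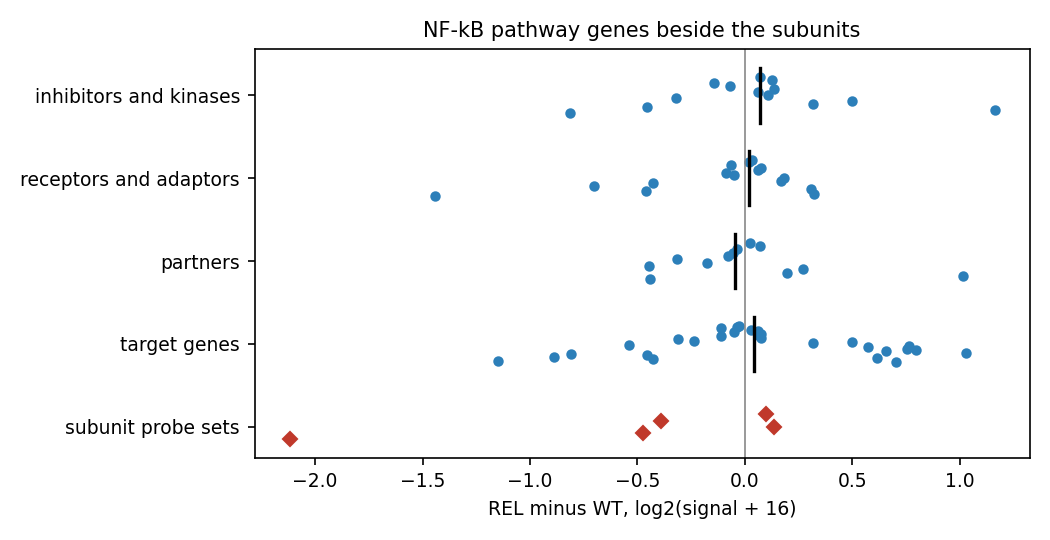
REL minus WT difference on the log2(signal + 16) scale for each tested gene of 4 NF-kB pathway lists (points, 1 per gene, with black lines at the list medians) and for the 5 subunit probe sets (diamonds). The list medians lie between −0.05 and 0.07, and Rel at −2.12 lies lower than any gene of the 4 lists.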

How the data were processed

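Gene expression was measured on 5 single-colour Affymetrix arrays, 2 REL and 3 WT, from about 10 ng of total RNA amplified before labelling (labels' protocols). The authors deposited MAS5 signal intensities on a linear scale, and MAS5 is named without a version in the submitters' processing notes. Scanner settings are not used here. MAS5 scales each array by itself and subtracts mismatch probes, which leaves low signals noisy after a log transform. Samples were grouped by their titles. Gene names came from the platform annotation, where 34958 of 45101 have 1 gene symbol, and 64 control probe sets were left out of the tests.

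Values were analysed as log2(signal + 16) without normalization between arrays. Each subunit probe set was tested in R 4.3.3 by limma 3.58.1 (lmFit and trended eBayes, with group as the only term and 3 residual degrees of freedom) over 45037 probe sets with no filter, two-sided, with Benjamini-Hochberg adjustment. Pathway lists were read from a second fit over 12082 genes, each by its brightest probe set after the lowest 40% of probe sets were left out. A call is an adjusted p under 0.05. Ratios were compared by exact permutation, where 10 pairs had been planned and 6 remained because Nfkb1 was not analysed here. The brightest probe sets had been planned for ratios and profile distances, but the dimmer probe set stood for Nfkb2 in both. Named genes of the pathway lists were those with the smallest unadjusted p, up to 4 per list. Genes named from the cell type marker lists were not chosen by this rule. The members and lists were chosen with earlier results of these data known. Alternatives were a pseudocount of 1 or 64, quantile normalization, median centring, no trend, a replicate block, other filters, averaging each gene's probe sets, and each array left out in turn. The code of both fits was tested on simulated data. Promoter windows and coordinates came from RefSeq tables of GRCm38.p6, and the kappaB motif search was chosen after the expression values were seen. The number of arrays limits the precision. Tables were made with pandas 2.3.3 in Python 3.11.15 and plots with matplotlib 3.10.9.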

Additional observations from a re-analysis of the deposited data

How the results depend on the processing

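The difference of Rel stayed below 0 and above the adjusted threshold in all 13 alternatives of the probe set fit (−2.89 to −1.34; limma adjusted p 0.451 to 0.985), and that of Rela did too (−0.69 to −0.30). No subunit was called in any alternative of either fit. Without REL replicate 2 the sign turned for Relb (−0.19) and the brighter Nfkb2 probe set (0.29), and without REL replicate 1 for the dimmer Nfkb2 probe set (−0.52). In the gene fit, which holds Nfkb2 by its brighter probe set, the signs of Relb and Nfkb2 turned likewise without REL replicate 2. The cause was not tested. With 1 REL array left, that array is assumed to vary like the WT arrays. Leaving out 1 array each moved Rel between −2.89 and −1.34, Relb between −0.19 and 0.46, the brighter Nfkb2 probe set between −1.07 and 0.29, the dimmer one between −0.52 and 0.72, the ratio of Rel over Rela between −2.46 and −0.83, Rel over Relb between −2.71 and −1.80, Rel over Nfkb2 between −3.61 and −0.82, Rela over Relb between −0.98 and −0.25, Rela over Nfkb2 between −1.15 and 0.0052 and Relb over Nfkb2 between −0.91 and 0.98. Relb over Nfkb2 was −0.047 with quantile normalization, −0.09 without WT replicate 3 and −0.91 without REL replicate 2. Each ratio with Nfkb2 was taken with its dimmer probe set. Over all genes, 1 was called higher and 0 lower. With a pseudocount of 1 or 64, no trend, no filter, a 60% filter or the mean of probe sets 0 were called higher, with median centring 3, and with quantile normalization 1 was called lower. Leaving out 1 array each gave 0 to 3 genes higher and 0 to 5 lower. The replicate numbers were used as a block (replicate block) although the labels do not say that they mark a shared litter or day. Same-numbered arrays deviated from their group means with correlations of -0.002 and 0.011. With 2 REL arrays the deviations of the REL arrays mirror each other, so these correlations cannot show whether the numbers mark a block. The replicate block called 10 genes higher and 8 lower and 1 probe set lower, and gave Rel −2.22 (limma adjusted p = 0.771). Signals near the level of dim probe sets, as for Rel in REL replicate 1, depend on the pseudocount, and Rel was at −2.55 with 1 and −1.48 with 64.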
